A study of Rattus norvegicus with 3 samples.

Results

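Acute-phase proteins are plasma and tissue proteins whose production changes with injury or infection, and 8 of their genes were followed here in rat retina: Lcn2, Orm1, Ptx3, A2m, Hp, Cp, Serpina3n and Hpx. They were taken by gene symbol from the tables of 32883 genes. RNA was measured, not protein. A row was found for 7 of the 8, each symbol with 1 row, and Serpina3n was not analysed here. The sequenced RNA came from Sprague-Dawley rat retina at postnatal day 60, in 1 library per group. The HIOP_GSK library came from retina given a drug labelled only GSK in the anterior chamber 24 h before ischemia. The HIOP library, named for high intraocular pressure, was made from retina after 60 min at 110 mmHg without the drug, a pressure at which retinal blood flow stops, and the protocol lets the rats live for 12 h after the pressure is lowered. The CTL library is labelled as untreated, whereas the protocol has sham animals whose eyes were only needled, at 2.66 kPa, and the sources used here do not say which of these applies to it. The drug's identity and dose, and the number of animals behind each library, are likewise not given in the sources used here. No vehicle-injected group was analysed here, so the drug and its injection cannot be told apart.

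The classical acute-phase response takes place in the liver, where interleukin-6 acting through STAT3, and interleukin-1 acting through NF-kB and C/EBP factors, switch on genes for plasma proteins. Several of these genes are also switched on in injured nervous tissue, where reactive glia, vessel cells and incoming leukocytes are known sources. Lcn2 encodes lipocalin 2, which withholds iron from bacteria by binding their siderophores and is a marker of reactive astrocytes. Ptx3 is a long pentraxin that binds microbes and complement and is made at the site of injury rather than in the liver. Orm1 encodes alpha-1-acid glycoprotein, a plasma lipocalin. Cp encodes ceruloplasmin, a copper ferroxidase that helps iron leave cells and is made by Müller glia in the retina. Hp and Hpx encode haptoglobin and hemopexin, which bind free hemoglobin and heme. A2m encodes alpha-2-macroglobulin, a protease inhibitor that is a major acute-phase protein of rat liver.

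Binding motifs of 4 kinds were looked up in the 250 bases before the RefSeq transcription start of each gene (build GRCr8), which the promoter table holds for 6 of the 8 genes and not for A2m and Hp. The windows of the members with the steepest differences are shown because they let the reader see which motif letters stand there, with motif matches in capitals:
Lcn2, chr3:36081781-36082030, minus strand: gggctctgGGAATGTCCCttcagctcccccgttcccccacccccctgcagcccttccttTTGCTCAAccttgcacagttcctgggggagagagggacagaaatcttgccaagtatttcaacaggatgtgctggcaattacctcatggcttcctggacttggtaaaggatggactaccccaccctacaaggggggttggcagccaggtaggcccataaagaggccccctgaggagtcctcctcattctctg
Orm1, chr5:81788259-81788508, plus strand: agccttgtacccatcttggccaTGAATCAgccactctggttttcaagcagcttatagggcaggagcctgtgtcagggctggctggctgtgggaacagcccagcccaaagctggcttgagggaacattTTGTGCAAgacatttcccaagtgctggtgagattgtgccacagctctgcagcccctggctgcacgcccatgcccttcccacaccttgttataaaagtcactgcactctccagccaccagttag
Ptx3, chr2:152797313-152797562, plus strand: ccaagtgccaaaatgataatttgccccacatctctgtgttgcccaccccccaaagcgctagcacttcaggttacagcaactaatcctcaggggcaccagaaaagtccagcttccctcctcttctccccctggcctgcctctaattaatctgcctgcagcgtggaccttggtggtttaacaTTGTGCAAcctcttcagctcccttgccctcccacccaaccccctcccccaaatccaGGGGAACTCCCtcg
Cp, a stretch of its window, chr2:104368588-104368615, plus strand: ttatttactcTTGTGCAAcattaaattg

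All motifs were searched on both strands. The C/EBP motif TTGCNNAA matched in the windows of Lcn2, Orm1, Ptx3, Cp and Hpx, and 9.20% of all 27457 windows of this length hold it. In Orm1, Ptx3 and Cp the match has the same 8 letters, TTGTGCAA, which 0.754% of the windows hold; this string was singled out after the matches were seen. The 10-letter NF-kB consensus matched in Lcn2, 242 to 233 bases before the start, and in Ptx3, where the matches overlap each other and end 4 bases before the start (6.41% of windows). The AP-1 motif TGANTCA matched in Orm1 (6.36% of windows), and the STAT motif TTCNNNGAA matched in Serpina3n alone among these windows (7.52% of windows). The whole Cp window and 71 bases of the Lcn2 window lie inside the annotated span of the gene, whose other transcripts start farther upstream. A match describes letters in a window and was not tied to binding in these libraries.

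The deposited counts summed to 15132754 in HIOP_GSK, 17221510 in HIOP and 16090064 in CTL. Levels are given as CPM, the count scaled to 1000000 reads after TMM scaling of library size, with a 95% exact Poisson interval. Ratios between libraries carry a 95% exact Clopper-Pearson interval of the 2 counts. Both cover counting error only, because no molecular identifiers tell reads of the same molecule apart and no group has a second library, so differences cannot be set against replicates and p-values are not given. In bulk tissue, fewer cells of a type and less RNA per cell cannot be told apart. Genes at 1 CPM or more in at least 1 library were compared, 15543 in all, and higher or lower in a count of genes means 2-fold or more on log2 CPM with a prior count of 2. Of the 7 members 5 passed that filter. Hpx, at 0.993 CPM in HIOP, lay just under it, and A2m lay far under it. Orm1 and Ptx3 passed it only through the injured libraries. The counts and medians of members that follow therefore describe the members and support nothing further.

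In the HIOP retina compared with CTL, Orm1, Ptx3, Lcn2 and Cp were higher, by at least 230-fold for Orm1, against a floor of 3 counts in CTL, and 4.90-fold for Cp. Hp was within 2-fold. None of the 5 compared members was 2-fold lower. Over all 15543 genes, 9.0% were higher by that limit and 8.04% lower. The median log2 ratio of the 5 members was 4.97, which is the value of Lcn2, against 0.00 over all compared genes. The members that were higher differed widely in size, while the hemoglobin and heme binders stayed at low counts.

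Lcn2 (ENSRNOG00000013973) had 5615 counts in HIOP_GSK, 7483 in HIOP and 223 in CTL. These are 369 CPM (359 to 379) in HIOP_GSK, 437 CPM (427 to 447) in HIOP and 13.9 CPM (12.1 to 15.8) in CTL. Both injured libraries were far above CTL, and HIOP_GSK was somewhat below HIOP. The HIOP over CTL ratio was 31.6 (27.6 to 36.2), the 66th highest of the 15543 compared genes, and the HIOP_GSK over CTL ratio was 26.6 (23.3 to 30.6). Between the injured libraries the HIOP_GSK over HIOP ratio was 0.844 (0.815 to 0.874), within the 2-fold limit. On the deposited TPM, a level corrected for transcript length, Lcn2 stood at rank 82 of all genes in HIOP_GSK, 55 in HIOP and 4313 in CTL.

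Orm1 (ENSRNOG00000007886) had 268 counts in HIOP_GSK and 735 in HIOP and was listed at 0 in CTL. The levels were 17.6 CPM (15.6 to 19.9) in HIOP_GSK and 42.9 CPM (39.9 to 46.2) in HIOP, and the interval for the count of 0 in CTL reaches 0.229 CPM. Ratios against a count of 0 were set against a floor of 3 counts, which is 0.186 CPM in CTL and lies inside that interval, so these ratios would be smaller at its upper bound. Only the injured libraries held Orm1 counts, with HIOP above HIOP_GSK. Against that floor of 3 counts, HIOP_GSK was at least 94.5-fold higher than CTL. Orm1 was 2.44-fold lower in HIOP_GSK than in HIOP (2.12 to 2.81), which is past the 2-fold limit.

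Ptx3 (ENSRNOG00000012280) had 99 counts in HIOP_GSK, 1633 in HIOP and 8 in CTL. These are 6.51 CPM (5.29 to 7.92) in HIOP_GSK, 95.4 CPM (90.8 to 100.1) in HIOP and 0.497 CPM (0.215 to 0.979) in CTL. The HIOP library stood far above both others, and HIOP_GSK still stood above CTL. The HIOP over CTL ratio was 192 (97.2 to 445), the 19th highest of all compared genes, and 366 on the deposited TPM, where CTL was at 0.18. The HIOP_GSK over HIOP ratio of Ptx3, 0.0682 (0.0551 to 0.0836), was the 11th lowest of all compared genes. HIOP_GSK over CTL gave 13.1 (6.39 to 31.2) on counts and 24.3 on TPM.

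Cp (ENSRNOG00000011913) had 10049 counts in HIOP_GSK, 11901 in HIOP and 2282 in CTL. These are 660 CPM (648 to 673) in HIOP_GSK, 695 CPM (683 to 708) in HIOP and 142 CPM (136 to 148) in CTL. The injured libraries lay close together and far above CTL. The ratio was 4.90 in HIOP over CTL (4.69 to 5.13) and 4.66 in HIOP_GSK over CTL (4.45 to 4.88). Between the injured libraries the HIOP_GSK over HIOP ratio was 0.95 (0.925 to 0.976) on counts and 1.02 on TPM, so its direction changed with the measure.

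The heme and hemoglobin binders gave few counts. Hp (ENSRNOG00000014964) had 39 counts in HIOP_GSK, 40 in HIOP and 22 in CTL. Its ratio was 1.71 in HIOP over CTL (0.992 to 3.02) and 1.88 in HIOP_GSK over CTL (1.08 to 3.32), and HIOP_GSK over HIOP was 1.10 (0.687 to 1.75). Hp was thus under the 2-fold limit throughout, with wide intervals. Hpx (ENSRNOG00000018257) had 14 counts in HIOP_GSK, 17 in HIOP and 9 in CTL, a HIOP over CTL ratio of 1.78 (0.749 to 4.52) that was not detectable as a difference at this depth. A2m (ENSRNOG00000045772) had 3 counts in HIOP and was listed at 0 counts in HIOP_GSK and CTL, and its TPM was 0 in all 3 libraries, so no ratio is given. In these tables Hprt1 and Rps6, which nearly every cell uses, are also listed at 0 in all 3 libraries, and whether the counting missed such genes was not tested.

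**Figure D1:**
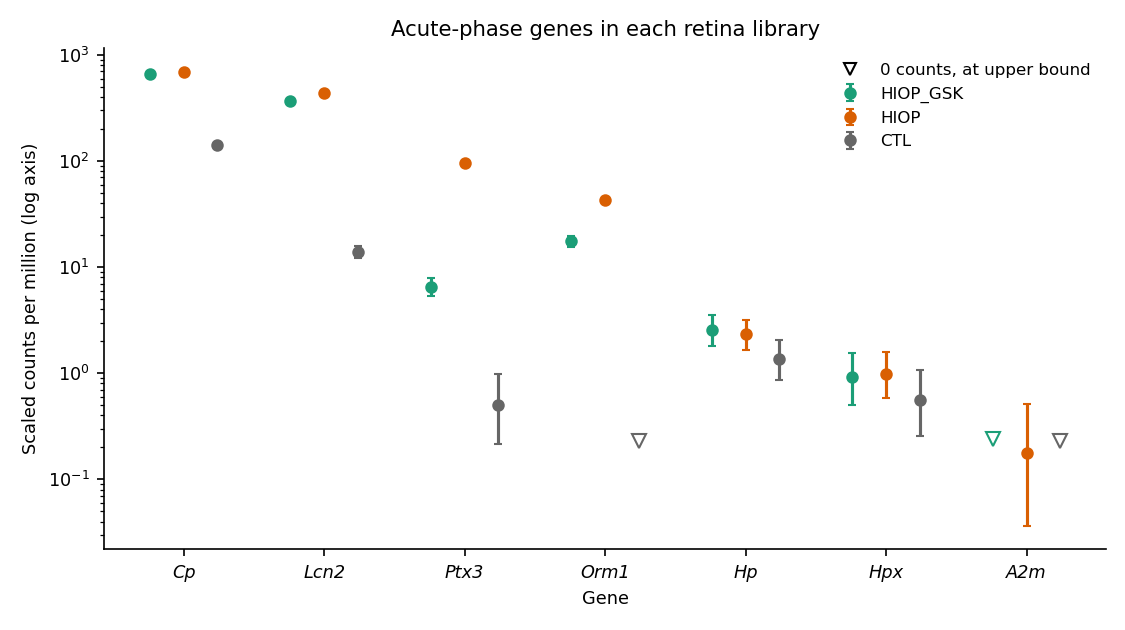
CPM (log axis) of the 7 measured acute-phase genes in the HIOP_GSK, HIOP and CTL libraries, 1 library each; bars are 95% exact Poisson intervals (counting error only), and open triangles mark libraries with 0 counts at the upper interval bound. For Lcn2 and for Cp the injured libraries lie close together and above CTL, Ptx3 is at 6.51 CPM in HIOP_GSK and 95.4 in HIOP, and Hp, Hpx and A2m stay low.

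Because TPM is corrected for length, it allows levels to be ordered between genes within a library. In HIOP_GSK the order was Lcn2 (751 TPM), Cp (232), Orm1 (28.8), Ptx3 (4.38), Hp (2.87) and Hpx (0.30). In HIOP it was Lcn2 (847 TPM), Cp (227), Orm1 (68.0), Ptx3 (65.9), Hp (2.65) and Hpx (0.32), with Orm1 and Ptx3 nearly level. In CTL it was Cp (51.9 TPM), Lcn2 (27.0), Hp (1.82), Ptx3 (0.18) and Hpx (0.08), with Orm1 and A2m at 0. Cp led the members in CTL and Lcn2 led them in both injured libraries. No spread between libraries of a group can be set against neighbours in these orders. Summed over the 7 members the level was 1020 TPM in HIOP_GSK, 1211 in HIOP and 81.0 in CTL. Lcn2 made up 73.6% of that sum in HIOP_GSK, 69.9% in HIOP and 33.4% in CTL.

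**Figure D2:**
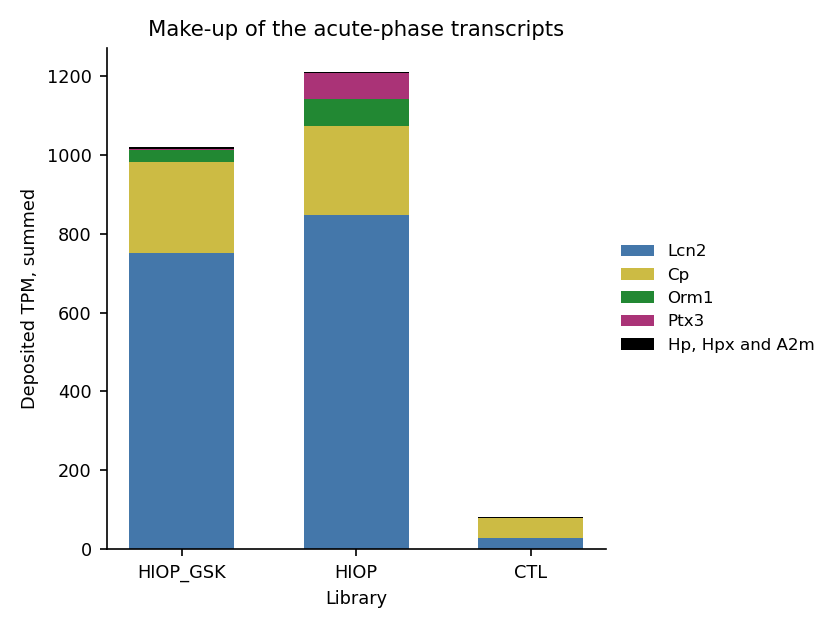
Deposited TPM of the measured acute-phase genes, stacked for the HIOP_GSK, HIOP and CTL libraries (1 library each, no error bar). Lcn2 and Cp make up most of the height in each bar, with 751 and 232 TPM in HIOP_GSK, 847 and 227 in HIOP, and 27.0 and 51.9 in CTL, while the Ptx3 segment is visible only in HIOP.

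In the HIOP_GSK retina compared with HIOP, Ptx3 and Orm1 were lower, by 14.7-fold (12.0 to 18.1) and 2.44-fold, whereas Lcn2, Cp and Hp were within 2-fold. Over all compared genes, 1.69% were lower by that limit and 4.56% higher, and none of the 5 compared members was 2-fold higher. The median log2 ratio of the 5 members was -0.24, again the value of Lcn2, against 0.00 over all compared genes. Compared with CTL, the HIOP_GSK library still had Orm1, Lcn2, Ptx3 and Cp at least 2-fold higher and no member lower, where 10.4% of all compared genes were higher and 6.32% lower. These comparisons share libraries and are not independent of each other.

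The balance among the members can be read inside each library, free of scaling. For every 100 Lcn2 counts there were 1.76 Ptx3 counts in HIOP_GSK (1.43 to 2.15), 21.8 in HIOP (20.7 to 23.0) and 3.59 in CTL (1.53 to 7.19). Ptx3 was thus high relative to Lcn2 in the HIOP library only. Orm1 gave 4.77 counts per 100 of Lcn2 in HIOP_GSK (4.21 to 5.40) and 9.82 in HIOP (9.09 to 10.6). Cp gave 179 in HIOP_GSK (173 to 185), 159 in HIOP (154 to 164) and 1023 in CTL (891 to 1179). Since counts also follow transcript length, these values compare libraries and not the levels of the 2 genes.

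Genes with the most similar pattern were sought by distance in the plane of the log2 ratios HIOP over CTL and HIOP_GSK over HIOP, over 3 libraries. Nearest to Ptx3 lay Csf3, the granulocyte growth factor, at a distance of 0.80, and Cxcl10, an interferon-induced chemokine, at 1.08. Nearest to Orm1 lay the neutrophil chemokine Cxcl2 at 0.27 and the AP-1 member Fosl1 at 0.36. None of the 12303 genes searched, those with a gene name and at least 50 counts in their highest library, lay within 0.25 of either. Lcn2 had 2 genes within that distance, Lnpep at 0.10 and the lipid droplet gene Plin2 at 0.21. Cp had 26, led by the integrin gene Itga5 at 0.087 and the protease receptor gene F2rl1 at 0.12, and Hp had 494, led by Bola2 at 0.0054 and Pgs1 at 0.017. The place of Orm1, Cxcl2 and Csf3 on the first axis depends on the prior count, as CTL held no count of these genes.

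**Figure D3:**
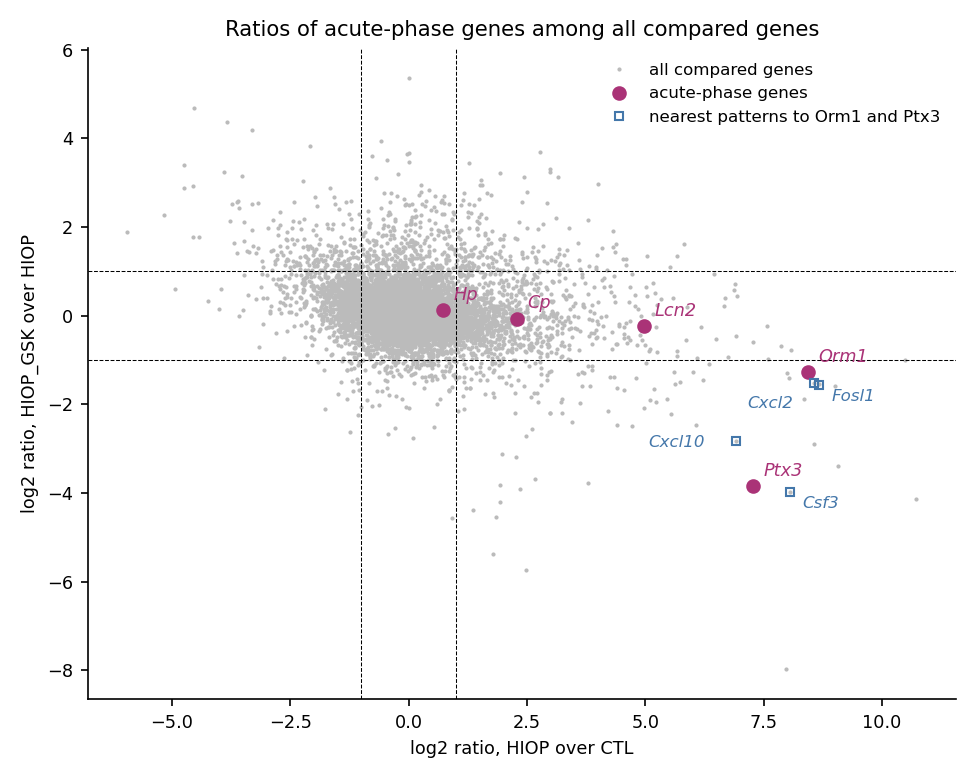
Log2 ratio of HIOP over CTL (horizontal axis) against log2 ratio of HIOP_GSK over HIOP (vertical axis) for all 15543 compared genes (grey points), with the 5 compared acute-phase genes as filled circles and the nearest patterns to Orm1 and Ptx3 as open squares; dashed lines mark 2-fold. Ptx3 lies at 7.27 and -3.85 and Orm1 at 8.44 and -1.28, below the lower line, whereas Lcn2, Cp and Hp lie between the horizontal lines.

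Upstream genes of the response were also measured. The IL-6 family list had 8 of 13 compared genes past 2-fold upward in HIOP over CTL and none downward (median log2 ratio 1.52). Over all compared genes 9.0% were higher and 8.04% lower. Il6, Osm, Il11 and Lif were under 1 CPM in CTL and passed the filter only through the injured libraries. Their direction was thus largely fixed in advance. Il6 itself had 21 counts in HIOP_GSK, 140 in HIOP and 0 in CTL, and Osm, for oncostatin M, had 17 in HIOP_GSK, 97 in HIOP and 0 in CTL. Both ligands were thus counted in the injured libraries alone and were higher in HIOP. In HIOP_GSK over HIOP, Il6 was 5.93-fold lower (3.73 to 9.87), Osm 5.07-fold lower (3.01 to 9.06) and Lif 2.10-fold lower (1.81 to 2.44). These were the only 3 of the 13 past 2-fold in that comparison, where 1.69% of all compared genes were lower. Clcf1 and Il11 were within 2-fold there, at 1.0 (0.908 to 1.10) and 1.18 (0.93 to 1.5). The receptor gene Osmr was 24.3-fold higher in HIOP than in CTL (18.9 to 31.7), and Il6st, for the shared subunit gp130, was 2.34-fold higher (2.24 to 2.45).

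Among IL-1 and TNF genes all 9 that passed the filter were at least 2-fold higher in HIOP than in CTL (median 3.31), where the list has 12 genes. Over all compared genes 9.0% were higher. Il1a, Il1b, Il1r2 and Il1rn were under 1 CPM in CTL and passed the filter only through the injured libraries, so their direction was largely fixed in advance. Il1a had 43 counts in HIOP_GSK, 183 in HIOP and 2 in CTL, and was the only 1 of the 9 past 2-fold in HIOP_GSK over HIOP, 3.78-fold lower (2.70 to 5.40). Tnf was near 0, with 3 counts in HIOP and none in the other libraries. Of 16 compared transcription factor, kinase and feedback genes, 11 were higher in HIOP than in CTL and 1 was lower (median 1.89). Socs3, among the higher, was under 1 CPM in CTL, and the lower gene, Hnf4a, was under 1 CPM in HIOP. Stat3, the factor downstream of gp130, was 5.67-fold higher (5.38 to 5.98), and the C/EBP factor genes Cebpb and Cebpd were 12.7-fold (9.52 to 17.3) and 14.4-fold (11.6 to 18.0) higher. In HIOP_GSK over HIOP their ratios were 0.819 for Stat3 (0.794 to 0.844), 0.585 for Cebpb (0.513 to 0.667) and 0.729 for Cebpd (0.670 to 0.794). None of the 16 was 2-fold lower there and 1 was 2-fold higher, Hnf4a, with 20 counts in HIOP_GSK and 6 in HIOP.

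**Figure D4:**
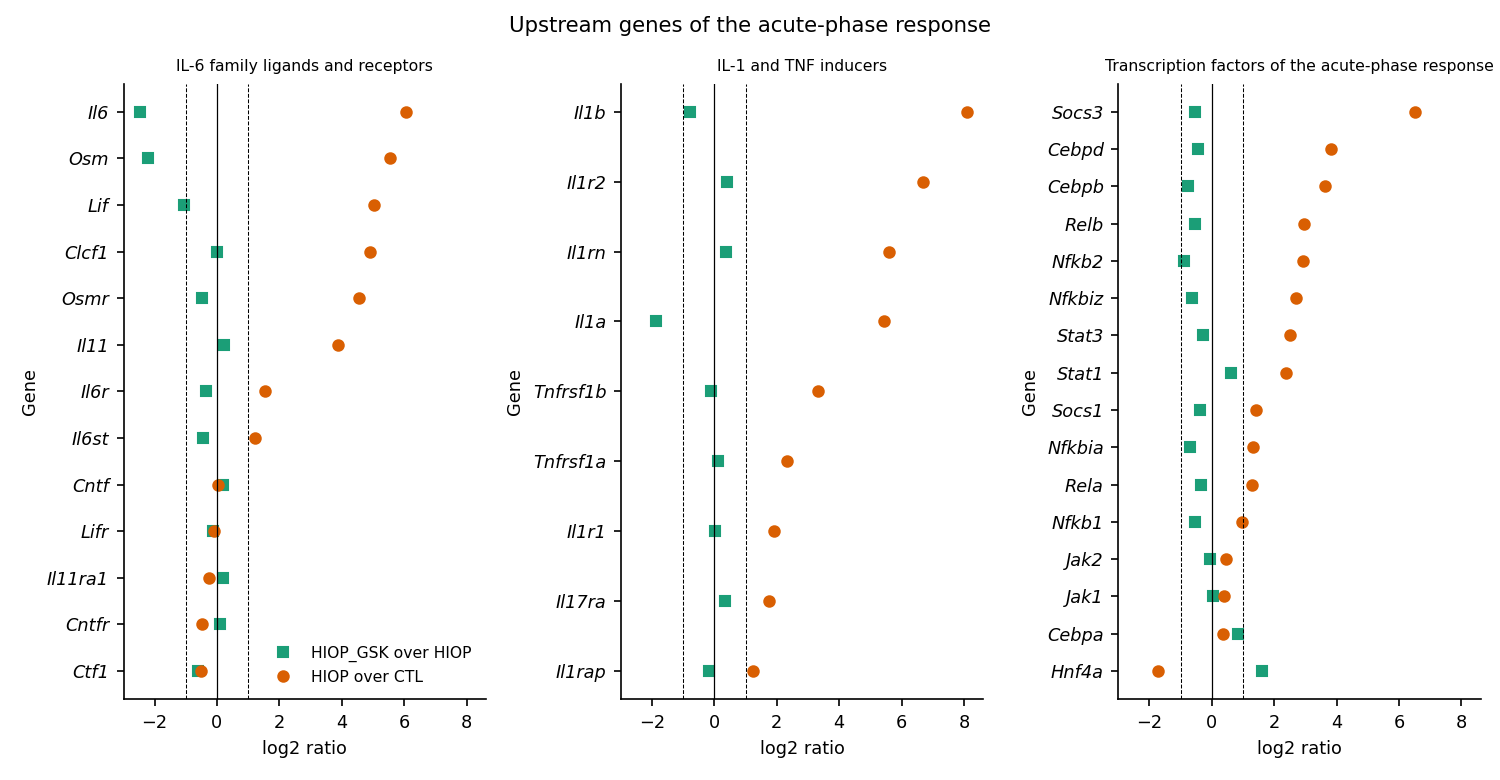
Log2 ratios of the compared genes of 3 lists, with HIOP_GSK over HIOP as squares and HIOP over CTL as circles (1 library per group, prior count of 2; dashed lines mark 2-fold). Il6, Osm and Lif in the IL-6 family and Il1a in the IL-1 and TNF list are the squares left of the lower line, and no square of the transcription factor list is.

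Of 30 further acute-phase and plasma protein genes, 12 passed the filter, of which 6 were higher and 1 lower in HIOP than in CTL (median 1.22). Over all compared genes 9.0% were higher and 8.04% lower. Of the 12, Alb, Fetub, Fgg, Lbp and C4b were under 1 CPM in CTL and passed the filter only through the injured libraries. That largely fixed their direction in advance. C3, the central complement protein, had 1815 counts in HIOP_GSK, 1098 in HIOP and 160 in CTL. Fgg, which encodes 1 chain of fibrinogen, had 63 counts in HIOP_GSK, 138 in HIOP and 12 in CTL, while the genes of the other chains, Fga and Fgb, had at most 2 counts in any library. Fgg was 10.8-fold higher in HIOP than in CTL (6.0 to 21.4). Lbp, whose protein binds bacterial lipopolysaccharide, was 4.15-fold higher (2.19 to 8.54). Crp had 1 count in HIOP_GSK, 8 in HIOP and 4 in CTL. The iron carrier gene Tf, with 5223 counts in HIOP_GSK, 4343 in HIOP and 6398 in CTL, was within 2-fold throughout. In HIOP_GSK over HIOP, 4 of the 12 were higher, among them the complement inhibitor gene Serping1 at 2.25-fold (2.04 to 2.47). Only 1 was lower there, Alb, with 2 counts in HIOP_GSK and 21 in HIOP, which passed the filter only through HIOP. Over all compared genes 4.56% were higher and 1.69% lower in that comparison.

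Among relatives of A2m and Serpina3n and other protease inhibitors, 6 of the 9 that passed the filter were at least 2-fold higher in HIOP than in CTL and none lower (median 2.93). Over all compared genes 9.0% were higher and 8.04% lower. Of the 6, Serpinb2 and Slpi were under 1 CPM in CTL and passed the filter only through the injured libraries. That largely fixed their direction in advance. The A2m relatives Pzp and A2ml1 had 0 and 29 counts in HIOP_GSK, 0 and 22 in HIOP, and 1 and 43 in CTL. Serpina3m and Serpina3c were listed at 0 in all 3 libraries, as Hprt1 and Rps6 were, and whether the counting missed them was not tested. Slpi, an inhibitor of neutrophil elastase, had 1432 counts in HIOP_GSK, 202 in HIOP and 10 in CTL. Its HIOP_GSK over HIOP ratio was 7.98 (6.88 to 9.29), on the opposite side from Ptx3 and Orm1. Serpinb2, for plasminogen activator inhibitor 2, was 2.75-fold lower there (2.11 to 3.61), and in all 2 of the 9 were higher and 1 lower. Over all compared genes 4.56% were higher and 1.69% lower in that comparison.

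Partners of the member proteins were mostly within 2-fold in HIOP over CTL, with 3 of 12 compared genes higher and none lower (median -0.05). Over all compared genes 9.0% were higher and 8.04% lower. Of the 3, Cd163 was under 1 CPM in CTL and passed the filter only through the injured libraries. Slc22a17, described as a receptor for lipocalin 2, had 2799 counts in HIOP_GSK, 3217 in HIOP and 3805 in CTL. Lrp1, the receptor for alpha-2-macroglobulin and hemopexin complexes, had a HIOP over CTL ratio of 0.941 (0.911 to 0.971). Cd163, the macrophage receptor for haptoglobin bound to hemoglobin, had 148 counts in HIOP_GSK, 49 in HIOP and 10 in CTL. Hmox1, which degrades heme, had 5363 counts in HIOP_GSK, 3654 in HIOP and 27 in CTL. The scavenger receptor gene and the heme-degrading gene were thus highest in HIOP_GSK, while Hp and Hpx stayed at 40 counts or fewer in each library. Heph, a ferroxidase relative of Cp, had a HIOP over CTL ratio of 0.609 (0.501 to 0.738), on the other side of 1 from Cp. Slc40a1, for the iron exporter that works with ceruloplasmin, was listed at 0 in all 3 libraries, as Hprt1 and Rps6 were. Whether the counting missed it was not tested, so the 0 cannot be read as absence.

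Other cells can carry acute-phase transcripts, so marker lists were summed in each library. Retinal identity was present, as the rod and bipolar list summed to 18731 CPM in HIOP_GSK, 26296 in HIOP and 27717 in CTL. The hepatocyte list summed to 89.2 CPM in HIOP_GSK, 66.9 in HIOP and 133 in CTL, most of it from Ttr, which pigment epithelium also makes. Of its other genes, Alb had 2 counts in HIOP_GSK, 21 in HIOP and 0 in CTL, and Fgb had at most 1 count in any library. Apoa1 had 16 counts in HIOP_GSK, 26 in HIOP and 21 in CTL, Hnf4a had 20, 6 and 23, and Serpina1 had 9, 12 and 10. The neutrophil list summed to 172 CPM in HIOP_GSK, 137 in HIOP and 2.86 in CTL. All 7 of its 16 genes that passed the filter were higher in HIOP than in CTL, against 9.0% of all compared genes. No gene of the list exceeded 0.932 CPM in CTL. The 7 thus passed the filter only through the injured libraries, which largely fixed their direction in advance, and their count supports nothing further. Lcn2 and Ptx3 proteins are stored in neutrophil granules. Of the list, Mpo and Ltf were listed at 0 in all 3 libraries, as Hprt1 and Rps6 were, and Camp had at most 4 counts in any. Others were counted mainly in the injured libraries. S100a9 had 579 counts in HIOP_GSK, 984 in HIOP and 4 in CTL, Mmp9 had 457, 162 and 11, and Mmp8 had 65, 143 and 0. In HIOP_GSK over HIOP the neutrophil genes went both ways, with 2 of the 7 higher, none lower and a median log2 ratio of -0.23. Csf3r, the receptor for the granulocyte growth factor, was 2.92-fold higher (2.58 to 3.30) and the protease gene Mmp9 3.17-fold higher (2.65 to 3.82), whereas S100a9 had a ratio of 0.662 (0.596 to 0.734) and the collagenase gene Mmp8 of 0.511 (0.375 to 0.690). The monocyte and macrophage list summed to 291 CPM in HIOP_GSK, 171 in HIOP and 41.2 in CTL, with 6 of 8 compared genes higher in HIOP than in CTL. Of the 6, Cd14 and Cd163 were under 1 CPM in CTL and passed the filter only through the injured libraries. The red blood cell list summed to 138 CPM in HIOP_GSK, 293 in HIOP and 130 in CTL. All 4 of its compared genes, of 7 listed, were higher in HIOP than in CTL. In HIOP_GSK over HIOP 2 of the 4 were lower and none higher (median log2 ratio -1.03). Of the 4, Slc4a1 passed the filter only through HIOP, which largely fixed its direction in advance. The sum was thus highest in HIOP, as were the CPM levels of Orm1, Ptx3, Lcn2 and Cp. The globin genes Hba-a2 and Hbb of this list have near-identical copies, so their own counts are uncertain. The part of leukocytes and of red blood cells in the Lcn2, Orm1, Ptx3 and Cp values was not tested.

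Glial markers moved in several ways. The list of Müller glia and astrocyte markers summed to 4922 CPM in HIOP_GSK, 3782 in HIOP and 5057 in CTL. In HIOP over CTL, 2 of its 14 compared genes were higher and 7 lower (median -1.01), against 9.0% and 8.04% of all compared genes. Gfap had 2470 counts in HIOP_GSK, 642 in HIOP and 580 in CTL. The 2 higher genes were Vim, with 12341 counts in HIOP_GSK, 8977 in HIOP and 3566 in CTL, and Clu, with 22857, 18905 and 8688. Both were thus above CTL in the 2 injured libraries, as Lcn2 was. Among the 7 lower genes, Kcnj10 had 93 counts in HIOP_GSK, 12 in HIOP and 312 in CTL. Lens markers summed to 13522 CPM in HIOP_GSK, 3303 in HIOP and 1198 in CTL, and corneal and surface epithelium markers to 279 CPM in HIOP_GSK, 230 in HIOP and 585 in CTL. These lists of neighbouring tissue thus differed between the libraries, and their part in the members' values was not tested.

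**Figure D5:**
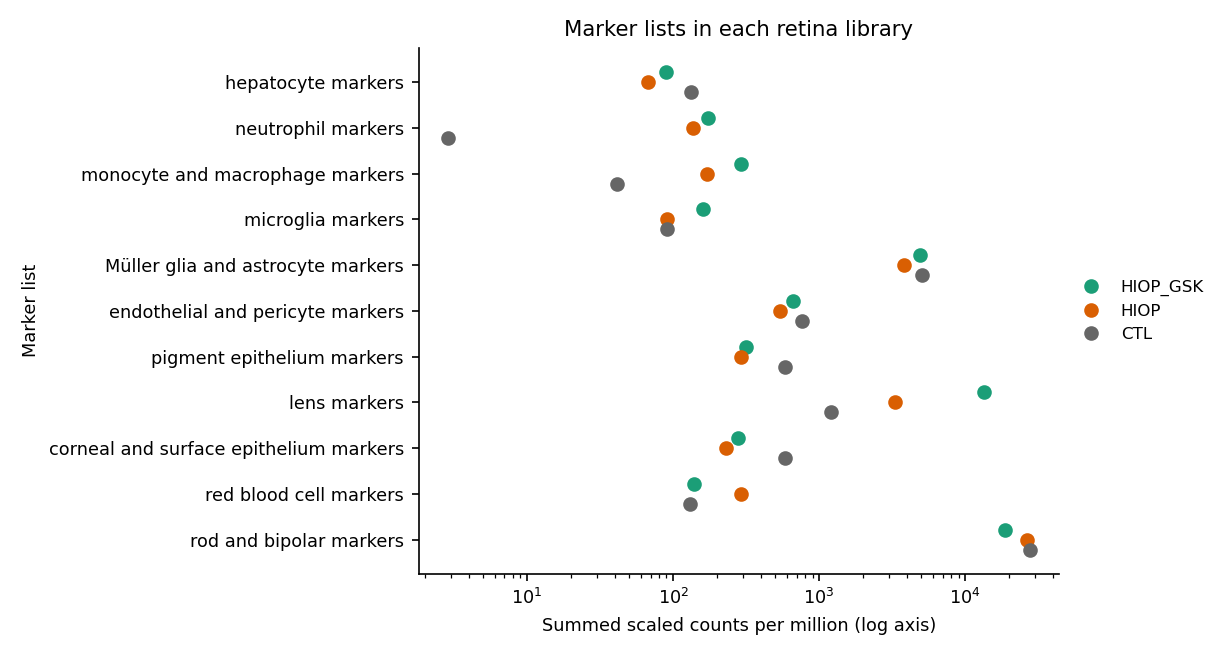
Summed CPM (log axis) of 11 marker lists in the HIOP_GSK, HIOP and CTL libraries, 1 library each, with no error bar. The neutrophil list lies at 172 CPM in HIOP_GSK and 137 in HIOP against 2.86 in CTL, and the lens list lies at 13522 CPM in HIOP_GSK, 3303 in HIOP and 1198 in CTL.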

How the data were processed

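The authors deposited a whole-number count and a TPM value per gene for each of 3 libraries, and the counts are not normalized. Per the submitters' processing notes the tools were STAR 2.5.4b with RSEM 1.3.1 on the build Rnor_6.0, with no role stated. Whether counting used strand is not given in the sources used here, which leaves genes with an overlapping neighbour uncertain. Counts and deposited TPM do not come from the same quantification: 503 genes in HIOP_GSK, 545 in HIOP and 566 in CTL reached 20 counts while their TPM was 0. Library sizes were scaled in R 4.3.3 with TMM (edgeR 4.0.16), by 1.01 in HIOP_GSK, 0.994 in HIOP and 1.00 in CTL. Depth limits the precision of Hp, Hpx and A2m, which had 40 counts or fewer in each library. Floors are 3 counts per library (0.197 CPM in HIOP_GSK, 0.175 in HIOP and 0.186 in CTL). The interval and ratio steps were tested on simulated counts. With 1 library per group no test across libraries was made. Alternatives were total counts, DESeq2 1.42.0 size factors, deposited TPM with a pseudocount of 0.5, other filters, priors, fold limits and scaling totals.

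The members and the 18 gene lists were chosen with earlier results of these data known. Of 229 distinct list genes 216 had a row. Named were all members, up to 4 genes per list whose nearer interval bound lay farthest from no difference in HIOP over CTL, and likewise in HIOP_GSK over HIOP, genes with a role tied to a member, and the 2 nearest patterns per member among genes with at least 50 counts in their highest library. Other list genes, such as Crp, Fga and Pzp, and the check genes Hprt1 and Rps6 were named after their values were seen. Promoter windows are credited to RefSeq (GRCr8) and were matched by symbol; no coordinates of the files' build are given.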

Additional observations from a re-analysis of the deposited data

How the results depend on the processing

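No paired analysis was possible because each group has 1 library. The counts of members past 2-fold in the 3 comparisons stayed within 1.5 times their value under the 11 alternatives, except at a limit of 3-fold, where 1 member (Ptx3) and not 2 was lower in HIOP_GSK than in HIOP, since Orm1 lies between the limits. Without the filter on low counts they were 5 higher in HIOP over CTL and 3 lower in HIOP_GSK over HIOP, the added member being A2m on 3 counts. Of 162 recomputed log2 ratios of members, 152 moved by less than their counting interval (for Orm1 over CTL, by less than 1), 10 moved by more and none of those past 2-fold changed sign. Settings that alter only the filter, the fold limit or the summing of rows cannot change a log2 ratio. Their share of the 152 was therefore fixed in advance and says nothing about stability. The 10 were 6 with the deposited TPM, 2 with a prior count of 0.5 and 2 with a prior count of 10; those with another prior were Orm1 over CTL, where CTL has 0 counts. With the deposited TPM the ratio of Cp in HIOP_GSK over HIOP was 0.03 on the log2 scale, against -0.07 on counts. No member symbol has more than 1 row, so summing rows of a symbol changes nothing. Depth limits Hpx and A2m, which were below the filter.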

Other observations

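Among reactive astrocyte genes other than the members, 16 of 22 compared genes were past 2-fold upward in HIOP over CTL and none downward (median log2 ratio 1.82). Over all compared genes 9.0% were higher and 8.04% lower. Cxcl10, Cd14 and Psmb8 were under 1 CPM in CTL and passed the filter only through the injured libraries. Gfap, Vim, Cd14, Timp1, Osmr, Stat3 and Serping1 also stand in lists above, so this list is not independent of those. In HIOP_GSK over HIOP, 5 of the 22 were at least 2-fold higher and 1 lower, where 4.56% of all compared genes were higher and 1.69% lower. The 1 lower gene was Cxcl10, with 143 counts in HIOP_GSK, 1154 in HIOP and 7 in CTL. The ferritin genes Fth1 and Ftl1, which store iron, were highest in HIOP_GSK, with 13250 and 4153 counts there, 8632 and 2059 in HIOP, and 3930 and 1125 in CTL.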
